A study of Macaca mulatta with 12 samples.

Results

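DSP, DSC2, DSG2, PKP2, JUP and CDH2, 6 genes of the junctions that hold heart muscle cells together, were followed. They were chosen by symbol, all 6 were found among the 16745 genes of the deposited expression table, and all 6 passed the filter on low values described below. TNNT2, which encodes cardiac troponin T, served as the reference gene for muscle and CDH1, which encodes E-cadherin, as that for epithelium. The cultures were labelled as cardiomyocytes derived from induced pluripotent stem cells of the rhesus macaque, grown in RPMI medium with B27 and insulin. Monolayer normoxia was a flat culture in ordinary oxygen, and EHT normoxia was engineered heart tissue, a culture in 3 dimensions, in ordinary oxygen. Monolayer hypoxia and EHT hypoxia were the same formats kept in anaerobic pouches for 24 hours, with a further 24 hours after the medium was renewed. Each of the 4 groups had 3 libraries. The labels give no stem cell line, differentiation batch or time of RNA collection, so p-values measure the spread between these libraries, which may be technical. They mention a change of medium for the hypoxic treatment alone, so low oxygen and the new medium cannot be told apart.

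Desmosomes are spot-like junctions that tie the intermediate filaments of neighbouring cells to each other. DSG2 (desmoglein 2) and DSC2 (desmocollin 2) are the cadherins that bridge the gap between cells. JUP (plakoglobin) and PKP2 (plakophilin 2) form the plaque beneath them, and DSP (desmoplakin) links that plaque to filaments, which are made of desmin in heart muscle and of keratin in epithelium. CDH2 (N-cadherin) is the classical cadherin of the adherens junction, which anchors actin at the same intercalated disc. Inherited defects of the desmosomal genes are known from arrhythmogenic cardiomyopathy. All of these proteins except CDH2 are also common in epithelia, where CDH1 takes the place of CDH2 in adherens junctions.

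The deposited values were variance-stabilised on a log2 scale, and whole reads could be recovered from them, 4154346 to 11298841 per library. Below, a level is a normalised read count, meaning recovered reads divided by a factor that brings the libraries to a common depth. A log2 difference is a difference of group means of the deposited values after each library was set to the same median, with its standard error from limma. It understates the fold of genes with few reads. Library medians of the deposited values ran from 6.98 to 8.75, and the largest shift in setting them equal was -1.29, for monolayer normoxia replicate 3. Muscle markers as a list (12 of 12 in the table, none at 0 in any group) summed to 62.9 to 1233 normalised reads in EHT normoxia and 169.8 to 6856 in EHT hypoxia, against 2876 to 21228 and 50985 to 54111 in monolayer normoxia and hypoxia. Replicate 3 was the lowest for TNNT2 in every group, at 7.55 normalised reads in EHT normoxia (9 reads) and 37.3 in EHT hypoxia (20 reads), and results that rest on an EHT replicate 3 are given with and without it.

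DSP, the filament linker, had its highest levels in monolayer normoxia. Its normalised read counts there were 18901, 5908 and 5307 in replicates 1, 2 and 3. In monolayer hypoxia they were 1874, 1903 and 2278. In EHT normoxia they were 155.7, 178.0 and 230.7, and in EHT hypoxia 456.2, 490.0 and 397.5. No group overlapped another, and the order ran from monolayer normoxia through monolayer hypoxia and EHT hypoxia to EHT normoxia. The share of all genes whose levels do not overlap is not given, so overlap of levels, here and below, is a description. The mean was 53.4-fold higher in monolayer normoxia than in EHT normoxia, or 29.8-fold without monolayer normoxia replicate 1 and 60.2-fold without EHT normoxia replicate 3. Monolayer normoxia replicate 1 held over 3 times as many DSP reads as the other libraries of its group, so the mean there, 10039 ± 7681 (SD, n = 3), was set largely by 1 library.

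The desmosomal cadherins followed the same order of groups. DSC2 had 1464, 470.2 and 437.3 normalised reads in monolayer normoxia and 107.9, 135.0 and 156.8 in monolayer hypoxia. In EHT normoxia it had 1.73, 14.3 and 25.2, and in EHT hypoxia 34.3, 65.9 and 87.7. The 4 groups did not overlap, although EHT normoxia rested on 1, 17 and 30 reads, and the single read of replicate 1 has a 95% counting interval of 0.0438 to 9.64 normalised reads. DSG2 had 1398, 973.8 and 949.7 in monolayer normoxia and 652.2, 759.8 and 819.0 in monolayer hypoxia. In EHT it had 93.4, 93.2 and 172.8 in normoxia and 250.7, 192.8 and 227.7 in hypoxia. DSG2 spanned a narrower range than DSC2, with a mean 9.24-fold higher in monolayer normoxia than in EHT normoxia, against 57.6-fold for DSC2. Without EHT normoxia replicate 3 these folds were 11.9 and 98.8, and without monolayer normoxia replicate 1 they were 8.03 and 33.1.

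Of the plaque genes, JUP did not overlap between culture formats, while PKP2 did in normoxia. JUP had 2983, 1830 and 1381 normalised reads in monolayer normoxia and 2016, 1951 and 1673 in monolayer hypoxia, ranges that overlap. It had 460.0, 624.5 and 334.7 in EHT normoxia and 617.9, 887.9 and 119.4 in EHT hypoxia, which overlap as well. Every EHT library lay below every monolayer library for JUP, and EHT hypoxia replicate 3 lay far below the other libraries of its group. PKP2 had 831.7, 760.8 and 656.7 in monolayer normoxia and 1132, 1226 and 1304 in monolayer hypoxia. It had 1072, 837.8 and 208.0 in EHT normoxia and 520.6, 575.8 and 289.3 in EHT hypoxia. PKP2 in EHT normoxia overlapped both its neighbours in the order of levels, because replicate 3 was low and the other libraries were at or above the monolayer normoxia range.

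CDH2, the cadherin of the adherens junction, did not share the order of the desmosomal cadherins. It had 1644, 1585 and 589.6 normalised reads in monolayer normoxia and 3802, 4207 and 4313 in monolayer hypoxia. In EHT it had 2546, 3067 and 2046 in normoxia and 787.8, 896.6 and 623.3 in hypoxia. The order was monolayer hypoxia, EHT normoxia, monolayer normoxia and EHT hypoxia, and the last 2 overlapped. In monolayer CDH2 was thus at its higher level after hypoxia, and in EHT at its lower.

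**Figure D1:**
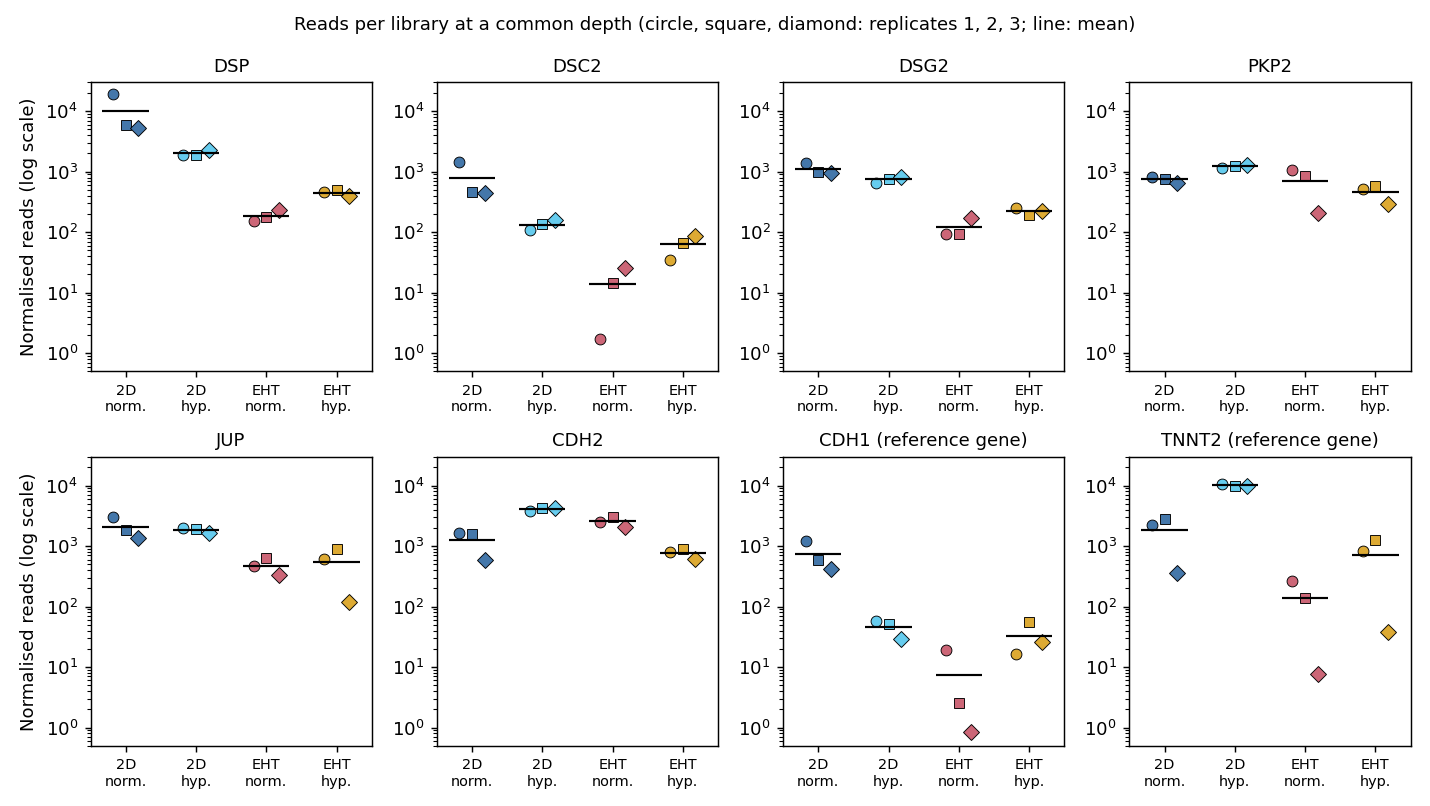
Normalised read counts (vertical axis, log scale) of the 6 junction genes and of CDH1 and TNNT2 in each library, by group (2D, monolayer; norm., normoxia; hyp., hypoxia), with replicates as circles, squares and diamonds and group means as lines. DSP, DSC2 and DSG2 are lowest in EHT normoxia and do not overlap between groups, while CDH2 is highest in monolayer hypoxia and overlaps between monolayer normoxia and EHT hypoxia. Overlap of levels is a description, without a share over all genes beside it.

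Setting EHT against monolayer cultures in normoxia asks how the junction genes differ between culture formats without oxygen depletion. In EHT 4 of the 6 genes were lower, where 18.5% of the 12084 genes tested were called lower (limma, adjusted p under 0.05). The log2 difference was -5.30 ± 0.35 for DSP (SE, n = 3 per group, limma adjusted p = 6.9e-07), -4.64 ± 0.49 for DSC2 (adjusted p = 1.6e-05), -2.98 ± 0.22 for DSG2 (adjusted p = 1.2e-06) and -1.98 ± 0.52 for JUP (adjusted p = 0.00917). CDH2 was higher, with a log2 difference of 1.19 ± 0.30 (limma adjusted p = 0.00705), in a comparison where 22.8% of genes were called higher. PKP2 differed by -0.28 (95% interval -1.24 to 0.67, limma adjusted p = 0.643). The median difference of the 6 genes was -2.48, beside 0.07 over all genes tested.

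The values of CDH2 and PKP2 depended on single libraries or on the scaling of the libraries. CDH2 lost its call on the deposited values as they stand (0.45, limma adjusted p = 0.498), and its difference was 0.73 (adjusted p = 0.00869) without monolayer normoxia replicate 3. PKP2 changed sign to 0.42 (adjusted p = 0.185) without EHT normoxia replicate 3, and it was called at that value (adjusted p = 0.0329) when both EHT libraries numbered 3 were left out. CDH1 differed by -4.999 ± 0.44 (limma adjusted p = 4.9e-06), or by -7.61 (adjusted p = 9.4e-04) when voom was run on the recovered reads, and TNNT2 differed by -3.64 ± 1.14 (adjusted p = 0.0222). The call of TNNT2 was lost in 4 of 23 alternatives, among them the omission of EHT normoxia replicate 3 (-2.58, adjusted p = 0.0949) or of monolayer normoxia replicate 1 or 2 (-3.27 and -3.10, adjusted p = 0.0700 and 0.0846).

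In hypoxia DSP, DSG2, PKP2, JUP and CDH2 were lower in EHT than in monolayer. CDH2 had been higher in EHT in normoxia, and PKP2 had not been called there. Of the 6 genes, 5 were called lower and 0 higher, beside 19.7% lower and 18.4% higher over all genes. The log2 difference was -2.37 ± 0.30 for CDH2 (SE, n = 3 per group, limma adjusted p = 1.0e-04), -2.12 ± 0.52 for JUP (adjusted p = 0.00708), -2.09 ± 0.35 for DSP (adjusted p = 6.1e-04), -1.62 ± 0.22 for DSG2 (adjusted p = 1.5e-04) and -1.39 ± 0.44 for PKP2 (adjusted p = 0.0254). DSC2 differed by -0.93 (95% interval -1.98 to 0.12, adjusted p = 0.148), with normalised reads that did not overlap between the formats, and was called in a fit to these groups alone (adjusted p = 0.0402). The call of PKP2 was lost without EHT hypoxia replicate 3 (-1.11, adjusted p = 0.0726) and, with differences of -1.46 to -1.33, without any 1 of the 3 monolayer hypoxia libraries (adjusted p = 0.0525 to 0.0756). Without both EHT libraries numbered 3 PKP2 was called at -1.11 (adjusted p = 6.8e-05). JUP stood at -1.30 (adjusted p = 0.00298) without EHT hypoxia replicate 3. TNNT2 differed by -4.73 ± 1.14 (adjusted p = 0.00627), while CDH1 differed by -0.37 (95% interval -1.32 to 0.58, adjusted p = 0.533).

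The comparison of hypoxia with normoxia in monolayer asks how the genes differed in flat cultures after oxygen depletion with its change of medium. DSP and DSC2 fell and CDH2 rose. DSP differed by -1.97 ± 0.35 (SE, n = 3 per group, limma adjusted p = 5.5e-04) and DSC2 by -2.11 ± 0.49 (adjusted p = 0.00334), 2 of 6 genes, where 18.6% of all genes were lower. CDH2 rose by 1.91 ± 0.30 (limma adjusted p = 2.3e-04), 1 of 6 genes, where 27.8% of all genes were higher. DSG2 differed by -0.45 (95% interval -0.93 to 0.02, adjusted p = 0.105), PKP2 by 0.79 (-0.17 to 1.75, adjusted p = 0.163) and JUP by 0.02 (-1.11 to 1.16, adjusted p = 0.974).

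A fit to the monolayer libraries alone called 5 of the 6 genes in that comparison, with DSG2 at -0.45 (limma adjusted p = 0.0371) and PKP2 at 0.79 (adjusted p = 5.3e-04) added at unchanged differences. Leaving out EHT normoxia replicate 3, a library outside the comparison that enters the shared variance, also gave 5 (DSG2, adjusted p = 0.0425, and PKP2, adjusted p = 0.00886). The difference of PKP2 moved with the scaling: it was 0.24 (adjusted p = 0.756) on the deposited values as they stand, and in CPM, which scales to the total reads of a library, its level was 132.6 ± 14.7 in monolayer normoxia and 137.5 ± 10.4 in monolayer hypoxia (SD, n = 3). DSG2 was also called with quantile normalization (-0.91, adjusted p = 0.00339) and with voom (-0.55, adjusted p = 0.0241). CDH1 fell by 3.41 ± 0.44 (limma adjusted p = 5.2e-05), in the direction of DSP and DSC2. TNNT2 rose by 3.02 ± 1.14 (adjusted p = 0.0453), in the direction of CDH2, and its call was lost in 11 of 23 alternatives, including the omission of monolayer normoxia replicate 3 (2.11, adjusted p = 0.180).

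In EHT, DSP and DSC2 rose with hypoxia and CDH2 fell, each opposite to its direction in monolayer. The desmosomal genes DSP, DSC2 and DSG2 rose, 3 of 6 genes, where 19.5% of all genes rose. Their differences were 1.24 ± 0.35 for DSP (SE, n = 3 per group, limma adjusted p = 0.0143), 1.60 ± 0.49 for DSC2 (adjusted p = 0.0215) and 0.90 ± 0.22 for DSG2 (adjusted p = 0.00648). CDH2 fell by 1.65 ± 0.30 (limma adjusted p = 0.00107), 1 of 6 genes, where 16.0% of all genes fell. PKP2 differed by -0.32 (95% interval -1.27 to 0.64) and JUP by -0.12 (-1.25 to 1.02), with adjusted p of 0.618 and 0.889.

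The rises of DSP and DSC2 in EHT were less secure than the fall of CDH2. Without EHT normoxia replicate 1, which held the single DSC2 read, DSP stood at 1.12 (limma adjusted p = 0.0550) and DSC2 at 1.08 (adjusted p = 0.0962), which left 2 of 6 genes called. DSC2 also lost its call without EHT hypoxia replicate 2 (1.54, adjusted p = 0.0617), with voom (2.24, adjusted p = 0.241) and in a fit to the EHT libraries alone (adjusted p = 0.0517). DSG2 lost its call on the deposited values as they stand (1.05, adjusted p = 0.163). JUP stood at 0.70 (adjusted p = 0.0562) without EHT hypoxia replicate 3, and at -0.65 (adjusted p = 0.370) without EHT hypoxia replicate 2. PKP2 stood at -1.02 (adjusted p = 0.00662) without EHT normoxia replicate 3 and at 0.13 (adjusted p = 0.855) without EHT normoxia replicate 1. CDH1 differed by 1.21 ± 0.44 (limma adjusted p = 0.0474) on 15 reads in EHT normoxia and 70 in EHT hypoxia, and 14 of 23 alternatives did not call it. TNNT2 differed by 1.92 (95% interval -0.55 to 4.39, adjusted p = 0.212), and its value rested on single libraries. It was 3.37 (adjusted p = 0.00814) without EHT hypoxia replicate 3, 0.87 (adjusted p = 0.601) without EHT normoxia replicate 3, 1.06 (adjusted p = 0.555) without EHT hypoxia replicate 2 and 2.31 (adjusted p = 0.0108) without both EHT libraries numbered 3.

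The interaction tests whether the hypoxia difference itself differed between EHT and monolayer. It was positive for DSP (3.21 ± 0.49, SE, limma adjusted p = 7.6e-04), DSC2 (3.71 ± 0.69, adjusted p = 0.00238) and DSG2 (1.35 ± 0.31, adjusted p = 0.00736), 3 of 6 genes, where 10.3% of all genes had a positive call. It was negative for CDH2 (-3.55 ± 0.42, limma adjusted p = 2.0e-04), where 14.1% had a negative call. PKP2 (-1.11, 95% interval -2.46 to 0.24, adjusted p = 0.220) and JUP (-0.14, -1.74 to 1.46, adjusted p = 0.916) were not called, and PKP2 was called without EHT normoxia replicate 3 (-1.81, adjusted p = 0.00202). DSG2 stood at 2.06 (adjusted p = 0.0291) on the deposited values as they stand. CDH1 had an interaction of 4.63 ± 0.62 (limma adjusted p = 3.7e-04; 7.07 with voom) and TNNT2 of -1.09 (95% interval -4.59 to 2.40, adjusted p = 0.670). The 5 comparisons share libraries: monolayer normoxia, for example, enters the first, the third and the interaction, so their values are not independent of each other.

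**Figure D2:**
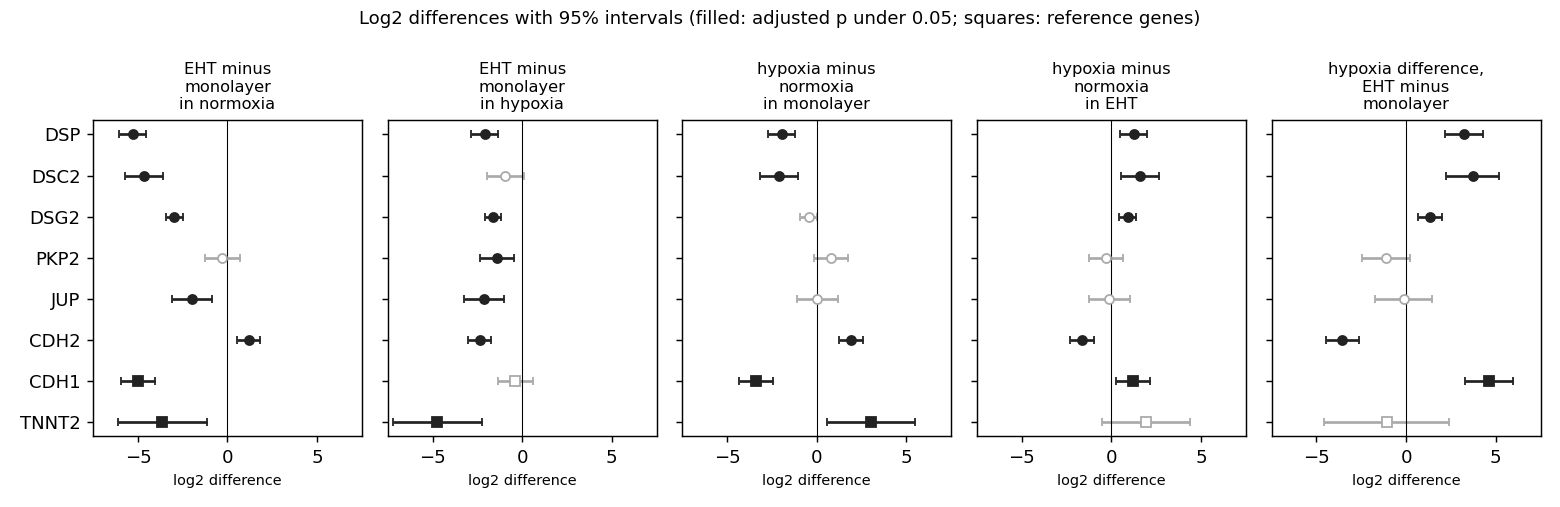
Log2 differences (horizontal axes) of the 6 junction genes (circles) and the 2 reference genes (squares) in the 5 comparisons, with 95% intervals from limma; filled symbols passed an adjusted p of 0.05. DSP, DSC2 and DSG2 lie left of 0 in the first 3 panels and right of it in the last 2, and CDH2 lies on the opposite side from DSP in every panel but the second.

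Reads of the 6 genes were also compared within each library, a measure that no scaling of libraries can move. These shares are not corrected for gene length, so each gene is compared between libraries and not with other genes. DSP made up 51.3% to 69.4% of the 6 genes' reads in monolayer normoxia, 18.7% to 21.6% in monolayer hypoxia, 3.60% to 7.65% in EHT normoxia and 15.8% to 22.8% in EHT hypoxia. CDH2 made up 6.04% to 13.7%, 39.7% to 41.3%, 58.8% to 67.8% and 28.8% to 35.7% in the same groups. Between monolayer normoxia and EHT normoxia the shares of DSP and CDH2 lay far apart in opposite directions, and between the hypoxic groups the shares of DSP overlapped. The 6 shares of a library add to a fixed whole, so a fall of DSP raises the other shares even at unchanged levels. CDH2 took a larger share in EHT hypoxia than in monolayer normoxia, although its mean level was lower (769.2 against 1273 normalised reads, with overlapping ranges).

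The shifts in share were tested by exact permutation of the libraries, two-sided, with 24 tests in all. From EHT normoxia to EHT hypoxia the mean share of CDH2 changed by -32.1 percentage points and that of DSP by 13.6 (exact p = 0.1 for each, adjusted p = 0.185). From monolayer normoxia to monolayer hypoxia they changed by 31.9 and -39.3 points, again at an exact p of 0.1. That is the smallest p that 3 against 3 libraries allow, so no such test could pass 0.05. PKP2 went from 3.05% to 7.04% of the reads in monolayer normoxia to 11.8% to 12.4% in monolayer hypoxia. Its mean level in CPM was 132.6 and 137.5 in these groups, so its share rose as that of DSP fell. The 6 genes together took 0.165% to 0.474% of all reads in monolayer normoxia, 0.109% to 0.121% in monolayer hypoxia, 0.0466% to 0.0662% in EHT normoxia and 0.0212% to 0.0377% in EHT hypoxia. In bulk RNA, fewer cells of a type and less RNA per cell cannot be told apart.

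**Figure D3:**
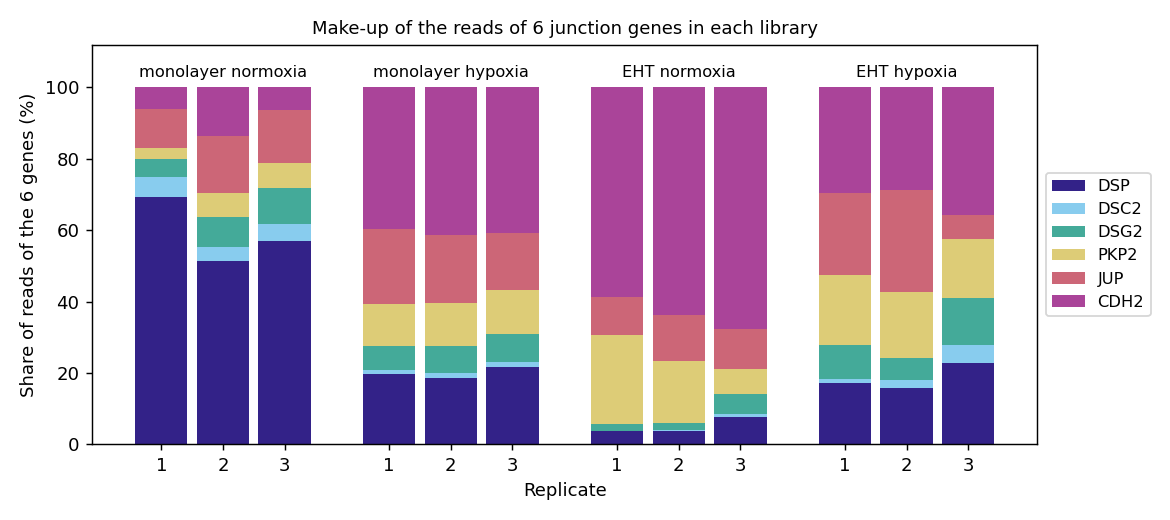
Share of the reads of the 6 junction genes taken by each gene (vertical axis, percent) in each of the 12 libraries, without correction for gene length. DSP takes 51.3% or more in monolayer normoxia and at most 7.65% in EHT normoxia, where CDH2 takes 58.8% or more.

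Set against the reference genes, all 6 genes lay nearer to CDH1 than to TNNT2 in distance, DSP and DSC2 by the widest margins. In ranks counted from the reference genes, TNNT2 was the nearer for JUP, PKP2 and CDH2, as given below. Likeness was measured as the root mean square distance between 2 genes over the 12 libraries, in log2 units, after each gene's own mean was subtracted. DSP lay 0.89 from CDH1 and 2.30 from TNNT2, and DSC2 lay 0.90 and 2.60. These values rest on the deposited scale, which is flat at few reads. CDH1 had 11, 3 and 1 reads in EHT normoxia, and DSC2 had 1, 17 and 30. The mean of normalised reads was 98.6-fold higher in monolayer normoxia than in EHT normoxia for CDH1, against 53.4-fold for DSP. Distances to CDH1 may therefore be too small, by an amount that was not measured. Of the 12083 other genes tested, 24 were closer to DSP than CDH1 was, and 8661 were closer than TNNT2. DSP and DSC2 lay 0.60 apart, and no other gene tested was as close to DSC2. DSG2 lay 1.24 from CDH1 and 0.83 from DSC2, and JUP lay 1.47 from CDH1 and 1.91 from TNNT2. Of all genes tested, 71.3% were closer to JUP than CDH1 was.

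PKP2 and CDH2 were far from both reference genes. PKP2 lay 1.91 from CDH1 and 2.28 from TNNT2, and CDH2 lay 2.42 and 2.54. They lay 0.80 from each other. Of all genes tested, 98.4% were closer to PKP2 than CDH1 was, and 99.2% were closer to CDH2. Counted from TNNT2, 1.64%, 6.17% and 16.2% of genes were closer than JUP, PKP2 and CDH2. Counted from CDH1, those shares were 5.98%, 32.9% and 90.4%. For DSP, DSC2 and DSG2 the share counted from CDH1 was the smaller. TNNT2 ranged from 4.55 to 13.34 in centred log2 values, a wider range than that of any of the 6 genes (DSC2, the widest, ran from 3.64 to 10.41), which in itself adds to every distance from TNNT2. These distances are descriptions, and libraries of a group share their condition.

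The difference of each gene from CDH1 within the same library showed where they parted. DSP stood above CDH1 by 3.31 to 3.94 log2 units in monolayer normoxia, 2.39 to 4.18 in EHT normoxia and 2.78 to 3.85 in EHT hypoxia, ranges that overlap. In monolayer hypoxia it stood 4.61 to 5.81 above CDH1, higher than in any other group on the deposited scale. DSG2 stood 0.20 to 1.19 above CDH1 in monolayer normoxia and 3.12 to 4.35 in monolayer hypoxia, and JUP 1.29 to 1.73 and 4.72 to 5.37. CDH2 went from 0.43 to 1.42 above CDH1 in monolayer normoxia to 5.63 to 6.73 in monolayer hypoxia and 6.29 to 7.41 in EHT normoxia. In EHT normoxia CDH1 rested on 11, 3 and 1 reads, where the deposited scale is flat, so differences from it there are too small. DSP had 90, 212 and 275 reads in those libraries. Whether DSP stood further above CDH1 in monolayer hypoxia than in EHT normoxia is therefore not settled by this scale.

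Against TNNT2 the spread was wider, since TNNT2 itself varied between replicates. DSP stood 1.06 to 3.87 above TNNT2 in monolayer normoxia and -2.48 to -2.10 from it in monolayer hypoxia. In EHT normoxia the difference ran from -0.73 to 3.40 and in EHT hypoxia from -1.30 to 3.08, with replicate 3 the highest in both. Of 24 gene and comparison pairs, 16 did not overlap between groups against CDH1 and 14 against TNNT2 (66.7% and 58.3%). Over all genes the same held for 64.4% and 66.2% of such pairs, so these counts are near the background. All 30 had an exact permutation p of 0.1, two-sided, the smallest possible (adjusted p = 0.16 over 48 tests).

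**Figure D4:**
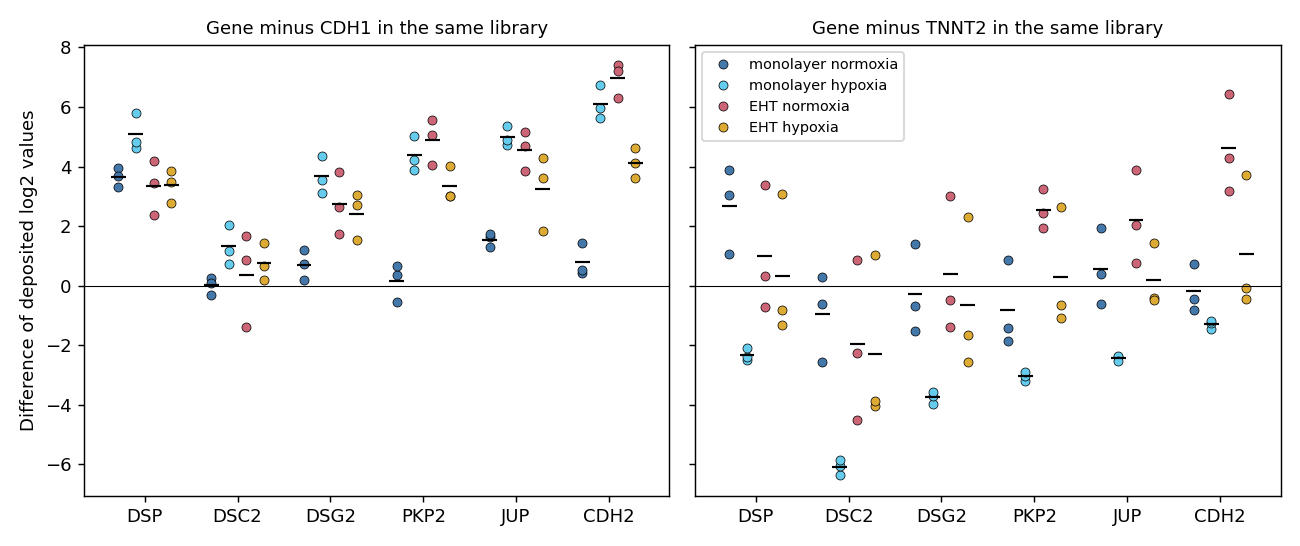
Difference between each junction gene and CDH1 (left) or TNNT2 (right) within the same library, in deposited log2 units (vertical axis); points are libraries, colours are groups and lines are means. Against CDH1, DSP overlaps between monolayer normoxia and both EHT groups, while CDH2 is at most 1.42 in monolayer normoxia and at least 5.63 in monolayer hypoxia.

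The other desmosomal genes, most of them typical of stratified epithelium, had their highest summed level in monolayer normoxia. Of 10 such genes in the table, 7 passed the filter on low values, and all 7 of those were called lower in EHT in normoxia (list median -4.09), with PPL (periplakin, -4.13), PKP3 (plakophilin 3, -4.36) and PKP1 (plakophilin 1, -3.60) at the smallest p. PKP1 had no read in EHT normoxia, so its fitted value depends on the scale and is no bound. In hypoxia 2 of 7 were called lower in EHT, DSC3 (-1.51) and PERP (-1.16), with a list median of -0.51. With hypoxia in monolayer 5 of 7 were called lower, among them PPL (-2.80), EVPL (envoplakin, -3.58) and DSG3 (-3.86). With hypoxia in EHT 1 of 7 was called higher, PKP3 (2.42), where 19.5% of all genes rose. DSG3 had 3 reads in monolayer hypoxia and passed the filter through monolayer normoxia, so its difference is a description and its fitted value no bound. The interaction was positive for 5 of 7 and negative for 0, beside 10.3% and 14.1% of all genes. Over all genes, 18.5% were called lower in EHT in normoxia, 19.7% in EHT in hypoxia and 18.6% with hypoxia in monolayer. Since 3 of the 10 genes were removed by the filter, these counts describe the genes that passed and support nothing further. The list summed to 2212 to 6735 normalised reads in monolayer normoxia, 774.7 to 865.5 in monolayer hypoxia, 290.6 to 704.6 in EHT normoxia and 434.0 to 478.1 in EHT hypoxia.

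DSC2, DSG2 and CDH2 are neighbours in the genome. In the RefSeq annotation of the macaque assembly T2T-MMU8v2.0, used here for gene order alone, DSG2, DSG3, DSG4, DSG1, DSC1, DSC2, DSC3 and CDH2 are 8 protein-coding genes in a row. In EHT normoxia no read of DSG1, DSG3 or DSC1 was found, but DSC3 had 85 reads there and 27 in EHT hypoxia. DSG4 had no read in any library. DSG3 averaged 296.7 ± 386.0 normalised reads in monolayer normoxia (SD, n = 3) on 1715 reads, and had 3 reads in monolayer hypoxia and 28 in EHT hypoxia. DSC3, which lies between DSC2 and CDH2, averaged 193.6, 65.9, 29.1 and 14.5 in monolayer normoxia, monolayer hypoxia, EHT normoxia and EHT hypoxia. CDH2 at the end of the row rose in monolayer hypoxia while DSC2 fell, as given above.

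Partners of CDH2 in the adherens junction were called in both directions. Over all genes, 18.5% were called lower and 22.8% higher in EHT in normoxia, and 19.7% and 18.4% in hypoxia. With hypoxia 18.6% were lower and 27.8% higher in monolayer, and 16.0% and 19.5% in EHT. Of 9 such genes tested, 4 were lower and 1 higher in EHT in normoxia, with MLLT4 (afadin, which binds nectins) at -1.48, PVRL2 (nectin 2) at -1.12, CTNNB1 (beta-catenin, a relative of JUP that binds cadherin tails) at -0.51 and ARVCF (an armadillo protein) at 0.45. In hypoxia 6 were lower and 1 higher. With hypoxia in monolayer 3 were higher, CTNNA1 (alpha-catenin, 0.72), CTNNA3 (the alpha-catenin typical of heart, 2.44) and ARVCF (0.57), and 4 were lower. In EHT 2 were higher, ARVCF (1.31) and CTNNA1 (0.30), and 1 lower, CTNNB1 (-0.65). The counts for hypoxia in EHT, and the 3 higher with hypoxia in monolayer, are near the background. Medians of the list were -0.50, -0.67, -0.36 and -0.04 in these 4 comparisons, beside 0.07, -0.02, 0.07 and 0.03 over all genes.

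Other genes of the intercalated disc went both ways between formats. In normoxia 22.8% of all genes were called higher in EHT and 18.5% lower. Of 8 tested in normoxia, 3 were higher in EHT, LMO7 (2.42), the gap junction gene GJA1 (1.66) and TMEM43 (0.76), and 3 were lower, DES (desmin, the filament that DSP binds in muscle, -5.86), ANK3 (-1.09) and FLNC (filamin C, -0.49). With hypoxia in monolayer 4 of 8 were called higher and 1 lower (27.8% and 18.6% of all genes), and the list median was 0.75. In EHT 3 were called higher and 0 lower (19.5% and 16.0% of all genes), with a list median of 0.35. DES differed by 3.31 ± 1.07 there (SE, n = 3 per group, limma adjusted p = 0.0289). Values of DES without an EHT replicate 3 are not given here.

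The genes whose pattern over the 12 libraries was nearest to each junction gene, outside the 6, were as follows. Nearest to DSP were BCAM (0.50), ELF3 (an epithelial transcription factor, 0.60) and ASTN2 (0.60), and nearest to DSC2 were ASTN2 (0.61), CTSV (0.64) and CXCL14 (0.67). Nearest to DSG2 were PMEL (0.32), ZNF711 (0.34) and LAD1 (0.37). PKP2 had SULF1 (0.32), GDF6 (0.33) and LMCD1 (0.34), and JUP had OLFM1 (0.24), POPDC3 (0.27) and MRAP2 (0.30). CDH2 had DPYSL3 (0.35), CCDC69 (0.37) and SORT1 (0.41). No gene appeared beside more than 1 of the 6 except ASTN2, which stood near DSP and DSC2.

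Markers of other cell types also differed between groups, some in the directions of these genes and some not. Their part in the results was not tested. Epithelial markers (10 of 12 in the table) summed to 5976 to 29742 normalised reads in monolayer normoxia, 378.8 to 509.5 in monolayer hypoxia, 48.7 to 95.1 in EHT normoxia and 117.6 to 672.8 in EHT hypoxia, and CLDN3, GRHL2 and ESRP1 had no read in EHT normoxia. Of the 10, 9 were called lower in EHT in normoxia (18.5% of all genes) and 8 after hypoxia in monolayer (18.6%), the comparisons in which DSC2 fell. The filter takes the mean over all libraries, so genes without a read in EHT normoxia passed it through groups where they were higher. These counts are therefore a description and support nothing further. In hypoxia 3 were lower in EHT (19.7% of all genes). With hypoxia in EHT, 3 of 10 rose and 1, KRT18, fell (-1.70), beside 19.5% and 16.0% of all genes. The counts for EHT in hypoxia and for hypoxia in EHT are near the background. Mesothelial or epicardial markers (7 of 8 in the table, none at 0 in any group) summed to 976.6 to 1407 in monolayer normoxia and 112.4 to 360.6 in the EHT groups, with 234.3 to 269.3 in monolayer hypoxia.

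Muscle markers were called lower in EHT for 11 of 12 genes in normoxia and 10 of 12 in hypoxia (18.5% and 19.7% of all genes). DSP, DSG2 and JUP were also called lower in both. With hypoxia in monolayer, where DSP fell, 5 of 12 muscle markers were called higher (27.8% of all genes). With hypoxia in EHT 2 of 12 were called higher (19.5% of all genes), near the background. Fibroblast markers (8 of 10 in the table, none at 0) were the most abundant list, at 191157 to 397622 normalised reads in monolayer normoxia and 336433 to 525069 in the EHT groups, against 382286 to 428983 in monolayer hypoxia. Neural markers (4 of 5 in the table, none at 0), included because neural cells express CDH2, summed to 2869 to 3349 in monolayer normoxia, 7988 to 8595 in monolayer hypoxia, 1093 to 1505 in EHT normoxia and 1616 to 2990 in EHT hypoxia. Between formats in normoxia, and with hypoxia in EHT, the neural sums went the opposite way to CDH2. With hypoxia in monolayer both rose, and in hypoxia both were lower in EHT. Endothelial markers (5 of 5 in the table, none at 0) summed to 138.1 to 2288 over the 12 libraries. Of the pluripotency markers in the table (3 of 5), POU5F1 and LIN28A had no read in any library, and the list summed to 121.7 at most.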

How the data were processed

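Per the labels, RNA was extracted with an RNeasy kit and sequenced on the Ion Proton. Per the submitters' processing notes, HISAT2, featureCounts and DESeq2 were used. The versions of these tools, the genome build, the annotation and the strand setting are not stated there. The authors deposited 1 table of variance-stabilised log2 values for 16745 genes and 12 libraries. Inverting the transformation gave whole reads within 0.01 for 100% of values in each library. Intervals on reads cover counting error only.

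The lowest deposited value was 3.00, and 12084 genes with a mean exceeding it by 1 log2 unit or more entered the tests. Each library was set to the same median, since deposited medians differed, and limma 3.58.1 (R 4.3.3) fitted 1 mean per group over all 12 libraries, with a mean-variance trend and Benjamini-Hochberg adjustment over all genes tested (threshold 0.05). Prior degrees of freedom were 4.77. Normalised reads used median-of-ratios factors. The fit was tested on simulated data. The text names the 6 genes, TNNT2, CDH1, up to 3 genes per list, direction and comparison with the smallest p, and the 3 nearest genes. Genes of the desmosomal cadherin row, and markers at 0, were named after their values were seen. The 6 genes, the 12 lists, the tests and the centring were chosen with earlier results of these data known. Alternatives were other scalings, filters, variance models, samples in the fit, the replicate number as a block, and leaving out libraries. Leaving out both EHT libraries numbered 3, the folds without single libraries, and the comparison of shares of reads were chosen after seeing the data. All 6 symbols matched RefSeq. Figures were drawn with matplotlib 3.10.9.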

Additional observations from a re-analysis of the deposited data

Results flagged for a closer look

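The hypoxia difference of 5 genes differed between EHT and monolayer by the interaction term of the limma fit (n = 3 per group). DSP had an interaction of 3.21 (limma adjusted p = 7.6e-04), from a fall in monolayer and a rise in EHT. For DSC2 it was 3.71 (adjusted p = 0.00238), with the same directions and on 1, 17 and 30 reads in EHT normoxia. For DSG2 it was 1.35 (adjusted p = 0.00736), where the monolayer difference alone was not called. CDH2 went the other way at -3.55 (adjusted p = 2.0e-04), with a rise in monolayer and a fall in EHT. CDH1 stood at 4.63 (adjusted p = 3.7e-04), on 15 reads in EHT normoxia.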

How the results depend on the processing

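Of 912 alternative values for the 8 genes in 5 comparisons, 830 kept direction and side of the threshold, 40 lost a call, 17 gained one and 25 changed sign. Calls of DSP, DSC2 and DSG2 for EHT against monolayer in normoxia, and of CDH2 in the other 4 comparisons, held in every alternative run. The number of junction genes called for hypoxia in monolayer, 3, became 5 in the fit to the compared groups alone and 5 without both EHT libraries numbered 3, and was 3 to 5 with 1 library left out. For hypoxia in EHT it was 2 to 5 with 1 library left out. With the replicate number as a block (replicate block) the counts were 5, 5, 3, 4 and 4, as without it. The block changed 1 call among the 8 genes, TNNT2 for hypoxia in EHT (1.92, limma adjusted p = 0.0441). The numbers were not taken as a pairing, since correlations of same-numbered libraries ran from -0.10 to 0.33 and 0 of 6 pairs of groups had all above 0.1. JUP after hypoxia in monolayer changed sign on deposited values (-0.53), with median-of-ratios scaling (-0.0654), quantile normalization (-0.60), voom (-0.0618) and the stricter filter (-0.0406), and ran from -0.20 to 0.30 with 1 library left out. In EHT it was 0.0359 on deposited values, 0.48 without both EHT libraries numbered 3 and -0.65 to 0.70 with 1 left out. Its interaction was 0.56 on deposited values, 0.41 with quantile normalization, 0.00372 with voom, 0.46 without both libraries numbered 3 and -0.67 to 0.68 with 1 left out. PKP2 for EHT in normoxia was 0.42 without both libraries numbered 3 and -0.73 to 0.42 with 1 left out, and for hypoxia in EHT -1.02 to 0.13. The interaction of TNNT2 was 0.0306 with voom and -2.15 to 0.35 with 1 left out. None of these values was called in the reported fit, and the cause was not tested. On deposited values the median difference of all genes was -0.66 for EHT in normoxia (0.07 after centring), and 325 genes were higher and 3099 lower, against 2750 and 2234. For hypoxia in monolayer 535 were higher and 2410 lower, against 3362 and 2253 (2892 and 2920 with median-of-ratios scaling), and for the interaction 1147 and 102, against 1248 and 1708. For EHT in hypoxia the deposited values gave 607 and 946, against 2227 and 2375, and for hypoxia in EHT 858 and 270, against 2360 and 1932. With median-of-ratios scaling EHT in normoxia gave 2311 and 2989.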
